A study of Homo sapiens with 2 samples.

Results

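The values below describe 4 genes of caveolae and vesicle traffic, CAV1, APPL1, RAB27B and SYTL5, in Hep3B cells with and without knockdown of caveolin-1. The Hep3B line comes from a human hepatocellular carcinoma. The genes were chosen by their measured difference: each is named in the authors' deposited tables of probe sets that differed at least 2-fold between the samples. They account for 4 of the 190 genes that those tables name by a single symbol and for 6 of the 244 listed probe sets (2 for CAV1, 2 for APPL1, 1 for RAB27B and 1 for SYTL5). Because the difference chose the genes, its size is given as a description and carries no test.

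Total RNA was measured in 2 samples, each on 1 Affymetrix HG-U133 Plus 2.0 array, on which a gene is read by probe sets, groups of short probes to 1 stretch of its transcript. The shCav1 sample was Hep3B with a short hairpin against CAV1 and the shCtl sample was Hep3B with a non-target hairpin. Both were grown in DMEM-HG culture medium. The sources used here do not give the hairpin's sequence, the number of hairpins, or whether the cells were a clone or a pool. With 1 array per group there is no spread between replicates and no p-value, and effects of the CAV1 decrease cannot be told apart from any other difference between the 2 samples.

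Caveolin-1 is the coat protein that, with cavins, shapes caveolae, the cholesterol-rich pits of the plasma membrane. Cargo taken up at the membrane passes through early endosomes, where APPL1, an adaptor with a curved membrane-binding domain, binds the GTPase RAB5 and links receptors to the kinase AKT. At the other end of the route, RAB27B, a small GTPase, brings secretory granules and multivesicular bodies to the plasma membrane for release. SYTL5 encodes a synaptotagmin-like protein, one of a family of effectors that bind the active form of RAB27 proteins and tether vesicles to membrane lipids. CAV1 and APPL1 were lower in the shCav1 sample and RAB27B and SYTL5 were higher, with 1 value per sample for every probe set.

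CAV1 lies on chromosome 7 at positions 116525009 to 116561185 of GRCh38.p14, where RefSeq annotates 4 transcripts. APPL1 lies on chromosome 3 at 57227729 to 57273471, RAB27B on chromosome 18 at 54717857 to 54895516 and SYTL5 on chromosome X at 37888915 to 38128820, and all 4 are protein-coding. The 250 bases before the RefSeq gene start are shown for CAV1 and APPL1, the lower pair, and for RAB27B, so that the start regions of genes from both directions can be set side by side. They are the reference sequence (RefSeq, GRCh38.p14, plus strand, 5′ to 3′) and not a reading of the Hep3B genome. Capitals mark the GC box GGGCGG and the CCAAT box, searched on both strands and not overlapping each other here.

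CAV1 chr7:116524759-116525008: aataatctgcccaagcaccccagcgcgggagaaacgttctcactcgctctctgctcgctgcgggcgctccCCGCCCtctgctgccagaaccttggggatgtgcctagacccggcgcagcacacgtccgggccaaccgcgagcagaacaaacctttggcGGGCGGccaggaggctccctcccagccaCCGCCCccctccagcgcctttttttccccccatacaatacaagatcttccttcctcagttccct

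APPL1 chr3:57227479-57227728: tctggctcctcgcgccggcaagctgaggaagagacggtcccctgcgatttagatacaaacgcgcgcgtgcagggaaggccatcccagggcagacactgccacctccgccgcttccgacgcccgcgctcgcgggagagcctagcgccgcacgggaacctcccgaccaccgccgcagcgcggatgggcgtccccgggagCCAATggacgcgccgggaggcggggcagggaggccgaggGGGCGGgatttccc

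RAB27B chr18:54717607-54717856: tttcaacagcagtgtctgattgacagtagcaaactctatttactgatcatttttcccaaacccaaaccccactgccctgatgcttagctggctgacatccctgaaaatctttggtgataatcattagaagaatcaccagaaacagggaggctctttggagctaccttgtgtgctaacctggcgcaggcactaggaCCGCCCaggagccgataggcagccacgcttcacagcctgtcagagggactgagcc

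The CAV1 window held 3 GC boxes and the APPL1 window held 1 GC box and 1 CCAAT box, while the RAB27B window held 1 GC box. At least 1 GC box was found in 42.6% of the 35116 RefSeq start windows of the same length, and a CCAAT box in 32.0%. The bases G and C made up 63.6% of the CAV1 window, 72.4% of the APPL1 window and 50.4% of the RAB27B window, against a median of 58.0% over all windows. CG dinucleotides numbered 18, 33 and 4 in the same order, with a median of 11. The table holds further windows at other starts inside 2 of the genes. The second RAB27B window had 12 CG dinucleotides, 56.0% G and C and 0 GC boxes, and the other CAV1 windows had 16 and 29 CG dinucleotides, so the values depend on the start chosen. Both SYTL5 windows of the table lie inside the annotated span of the gene, and they were poorer in G and C, at 36.0% and 28.4%, with 0 GC boxes and 0 CCAAT boxes. Neither the TATA box TATAAA (10.7% of all windows) nor the E-box CACGTG (6.34%) was found in any window of the 4 genes, the further windows of CAV1 and RAB27B included. These are matches of letters in a window and say nothing of which factors bind there.

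CAV1 was the target of the hairpin. It was also chosen by its difference between these samples, so its values are no separate check of the sample labels. The shCav1 signals given here and below are the shCtl signal times the deposited fold. At probe set 212097_at the signal was 935 in shCtl and 61.8 in shCav1 on the linear scale. At 203065_s_at it was 524 in shCtl and 38.7 in shCav1. The shCav1 sample was the low one at both probe sets, the direction that its label names, and 6.61% and 7.38% of the shCtl signal was left. The log2 differences (shCav1 minus shCtl) were -3.92 and -3.76, with a mean of -3.84 ± 0.11 (SD over 2 probe sets, a technical spread). They were the most negative and the second most negative of all differences among the 28128 probe sets that passed a filter on brightness.

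The deposited alignments of the CAV1 probe sets run over largely different stretches of chromosome 7. Probe positions were not used here, so whether these probe sets read different parts of the transcript was not tested. In the alignments as deposited, with no build named in the sources used here, 203065_s_at spans 34517 positions of chromosome 7 and 212097_at spans 1713 positions, and they overlap by 87. Their log2 differences were 0.16 apart, less than the robust SD of 0.22 among the 1000 probe sets nearest to each in brightness (a robust SD is the scaled median distance from the median). That robust SD describes how far probe sets of like signal scatter between these arrays and is no replicate error. After the decrease CAV1 was still above the median signal of both arrays, 30.7, at both probe sets. No detection call was used here, so the residual signal of 61.8 and 38.7 cannot be divided into CAV1 transcript and background. When 16 was added to every signal, a setting that shrinks differences of dim probe sets, the log2 differences were -3.61 and -3.30.

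**Figure D1:**
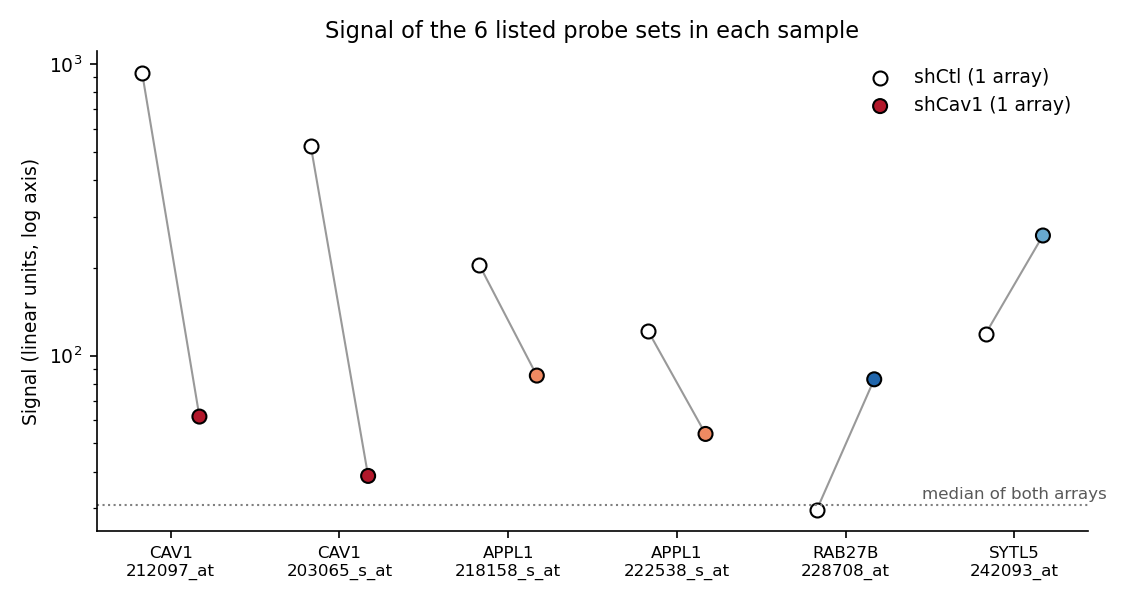
Signal of the 6 listed probe sets on the linear scale (log axis); open circles are the shCtl array, filled circles the shCav1 array, and grey lines join the values of 1 probe set. Both CAV1 and both APPL1 probe sets are lower in shCav1, RAB27B and SYTL5 are higher, and only RAB27B starts below the dotted line, the median of both arrays at 30.7.

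APPL1, the early endosome adaptor, was lower in shCav1 by a smaller amount. In RNA from whole cultures, fewer cells that express a gene and less RNA per cell cannot be told apart, here and for each gene. Its signal at 218158_s_at was 204 in shCtl and 85.5 in shCav1, and at 222538_s_at it was 121 in shCtl and 53.9 in shCav1. Between 41.8% and 44.4% of the shCtl signal was left, and the log2 differences were -1.26 and -1.17, with a mean of -1.21 ± 0.061 (SD over 2 probe sets, technical). The deposited alignments of both probe sets run over nearly the same stretch of chromosome 3, introns included, and share 45644 positions. Probe positions were not used here, so whether they read the same part of the transcript was not tested. Among the 84 kept probe sets that were at least 2-fold lower they ranked 33rd and 44th by size. The robust SD at their brightness was 0.20 for both. With 16 added to every signal, 222538_s_at had a log2 difference of -0.98, under 2-fold, and 218158_s_at -1.12.

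RAB27B, the GTPase of regulated secretion, was higher in shCav1 at its listed probe set, 228708_at. The signal was 29.7 in shCtl, just below the array median, and it was 83.0 in shCav1, which is 2.80-fold or a log2 difference of 1.48. The robust SD at its brightness was 0.19, and the difference ranked 50th of the 141 kept ones of at least 2-fold in that direction. RAB27B passed the brightness filter only through the shCav1 sample, where it was high, and was chosen by this difference, so its rank describes it and supports nothing. Since the shCtl signal was dim, the size of the fold depends on how background is treated, and with 16 added to every signal the log2 difference was 1.12. The deposited alignment of 228708_at, with no build named, covers 2571 positions of chromosome 18. RefSeq annotates the gene over 177660 bases, introns included, with 9 transcripts. Which of the transcripts the probe set reads, and what share of them, was not tested, so the value speaks for that stretch alone.

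SYTL5, the synaptotagmin-like effector, was also higher in shCav1. At 242093_at the signal was 119 in shCtl and 258 in shCav1, and neither sample was near the array median. The log2 difference was 1.12, or 2.17-fold, which ranked 104th of the 141 higher probe sets, where the robust SD at its brightness was 0.22. It was the smallest difference among the 6 probe sets and the one closest to the 2-fold limit. The alignment of this probe set covers 381 positions of chromosome X, and RefSeq annotates the gene over 239906 bases, introns included, with 28 transcripts. Which of the transcripts it reads was not tested. The hybridization spikes, bacterial and phage transcripts added before hybridization and read by 18 control probe sets, were all brighter on the shCav1 array, with log2 differences from 0.07 to 0.25 and a median of 0.14. When differences were centred on these spikes, SYTL5 came to 0.98, just under 2-fold, RAB27B to 1.35, and the APPL1 probe sets to -1.39 and -1.31.

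**Figure D2:**
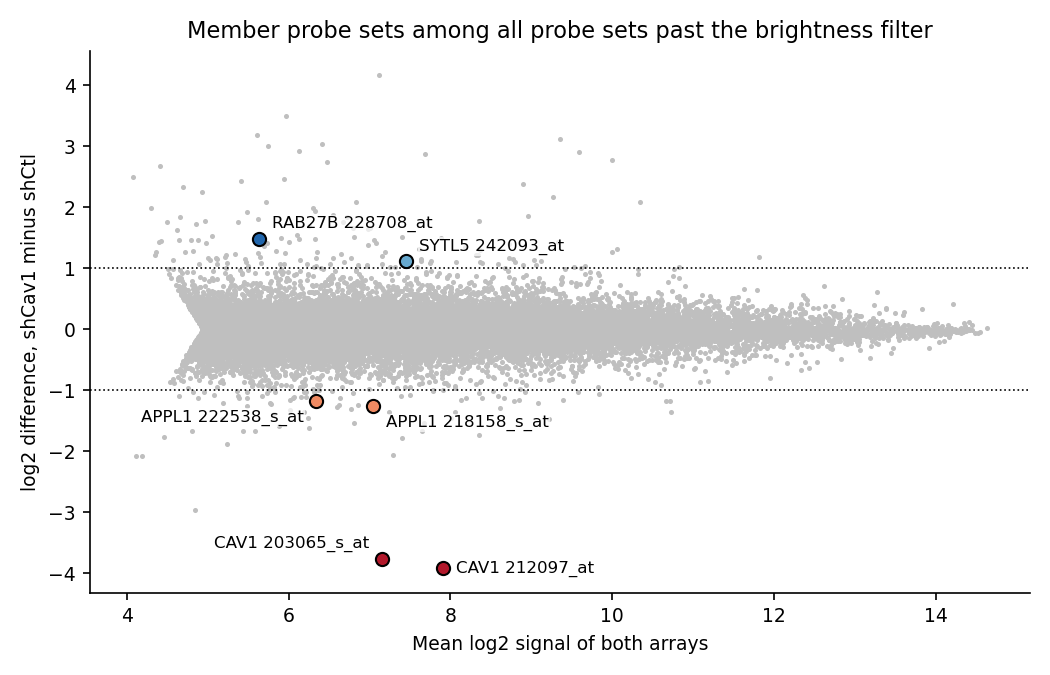
Each point is a probe set kept by the brightness filter; the horizontal axis is the mean log2 signal of both arrays and the vertical axis the log2 difference, shCav1 minus shCtl, with dotted lines at 2-fold. The CAV1 probe sets, at -3.92 and -3.76, lie apart from the cloud, while APPL1, RAB27B and SYTL5 lie near its outer edge between 2.17-fold and 2.80-fold.

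The 6 probe sets can be read against all others on the arrays. A probe set was kept when its brighter array reached 30.7, which held for 28128 of 54613 probe sets without the controls, and all 6 were kept. Of those kept, a share of 0.501% (141) differed by 2-fold or more with shCav1 higher, and a share of 0.299% (84) with shCav1 lower. With differences centred on the spikes these counts were 102 higher and 142 lower. All 4 genes are past 2-fold because the choice of genes required it, so nothing is read from that count. Differences over all kept probe sets were narrow, with a robust SD of 0.21, and 96.0% of them were under 1.5-fold. Just inside the limit among these genes stood SYTL5 at 2.17-fold and the dimmer APPL1 probe set at 2.25-fold. The unlisted probe sets just outside it, with log2 differences of 1 and -1 after rounding, carry no gene name here, so further probe sets of the 4 genes that stayed under 2-fold are not described.

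**Figure D3:**
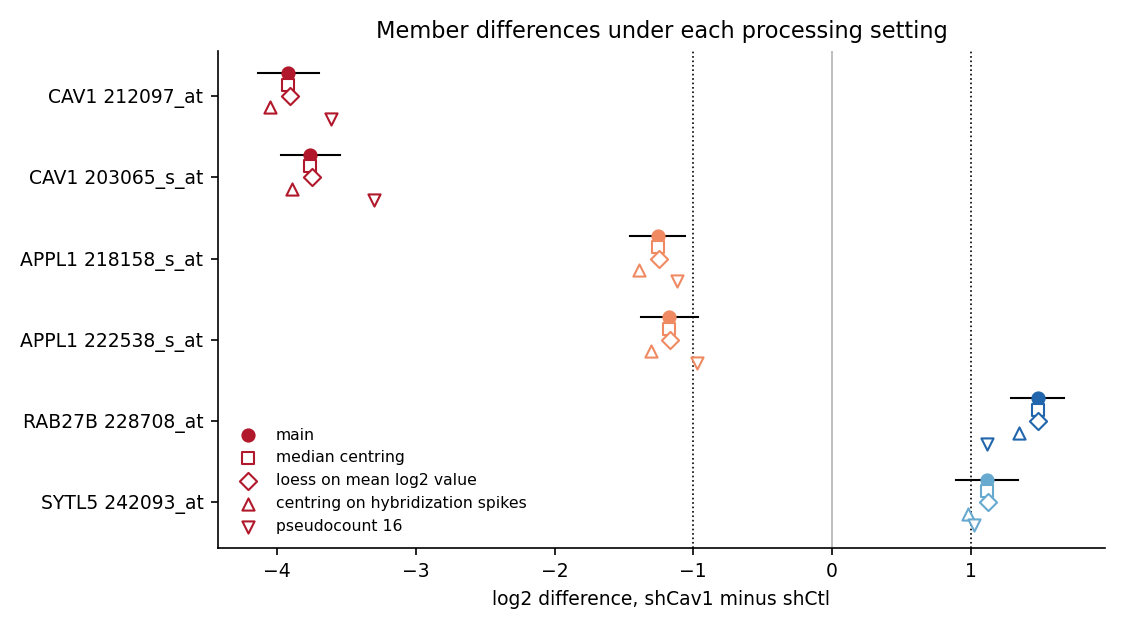
Log2 difference of each probe set (shCav1 minus shCtl) as deposited (filled circle, with a bar of 1 robust SD of the 1000 probe sets nearest in brightness on each side) and under the 4 other settings (open symbols), with dotted lines at 2-fold. No probe set changes direction, which median centring and adding 16 cannot bring about here. SYTL5 crosses the 2-fold line when centred on the spikes (0.98) and the dimmer APPL1 probe set when 16 is added to each signal (-0.98).

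Other genes of the same routes were looked for in 5 lists with 132 different genes. Of the 16 genes of caveolae and their partners, among them CAV2, the cavins, EHD2 and the flotillins, CAV1 was listed past 2-fold and 15 were not. Of 33 Rab GTPases RAB27B was listed, of 17 effectors and regulators of RAB27 SYTL5 was listed, and of 30 genes of endocytosis and early endosomes APPL1 was listed. None of the 36 genes of exocytosis, SNAREs and exosomes was listed. Over all 5 lists 2 genes were higher, 2 were lower and 128 were not listed. RAB27A, the close relative of RAB27B, and the family members SYTL1 to SYTL4 were among those not listed. The lists were made with the members known, and a gene that is not listed may differ by less than 2-fold or lack a probe set, so these counts place the 4 genes and give no share of a pathway that changed. No gene of the hepatocyte list (13) or of the 4 lists for other cell types (21 genes) was listed either. Their levels have no gene names here, so the cell line could not be checked against its markers.

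In the deposited annotation, further listed genes had terms for the same compartments. Unlisted probe sets have no annotation here, so no share over all genes can be set beside these counts. Whether such terms are more frequent among listed genes was not tested. Of the 180 listed genes with 1 symbol and at least 1 annotation term, 20 had a term naming a vesicle, an endosome, a caveola or the Golgi, 13 of them higher in shCav1 and 7 lower. This was 11.4% of the 114 annotated higher genes and 10.6% of the 66 annotated lower genes. Taken singly, vesicle words were held by 5.26% of the higher and 9.09% of the lower genes, and endosome words by 2.63% and 4.55%. Golgi words were held by 5.26% and 6.06% in the same order. The lower genes with vesicle words include CAV1 and APPL1, and those with endosome words include APPL1, which were chosen by their difference. Without the members, vesicle words were held by 6 of 112 higher and 4 of 64 lower genes. Endosome words were then held by 3 higher and 2 lower genes, and Golgi words by 5 and 3. Any of these words was held by 12 higher and 5 lower genes. When differences were centred on the spikes, 8 of the 13 higher genes were still past 2-fold and all 7 lower genes were. With 16 added to every signal, 10 higher and 5 lower genes were past 2-fold. CAV1, APPL1 and RAB27B are among the 20, whereas SYTL5 is not, since its terms name exocytosis and RAB GTPase binding. Terms for a secretory granule were held by 0 genes.

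On the lower side, SQSTM1, which encodes the autophagy receptor p62 and is annotated to endosomes, was at 39.2% of its shCtl signal, from 242 to 94.7. GOSR1, a SNARE protein of the Golgi that is on none of the 5 lists, was at 44.3%, from 663 to 293. On the higher side, TRPC4, a cation channel annotated to caveolae, had the largest difference, with a signal of 49.0 in shCtl and 179 in shCav1 at its brighter probe set, or 3.64-fold. Its other listed probe set was dim in both samples, with 7.58 and 18.4. TRPC4 was the only listed gene besides CAV1 with a caveola term, and the genes differed in opposite directions. NPC1L1, a cholesterol transporter of intestine and liver annotated to vesicles, was 3.38-fold higher, from 55.5 to 187.5. GRIA3, a glutamate receptor subunit also annotated to vesicles, was 2.82-fold higher, from 35.8 to 101. SQSTM1, GOSR1, NPC1L1 and GRIA3 each rest on 1 listed probe set. Any further probe sets of these genes that stayed under 2-fold carry no gene name here.

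**Figure D4:**
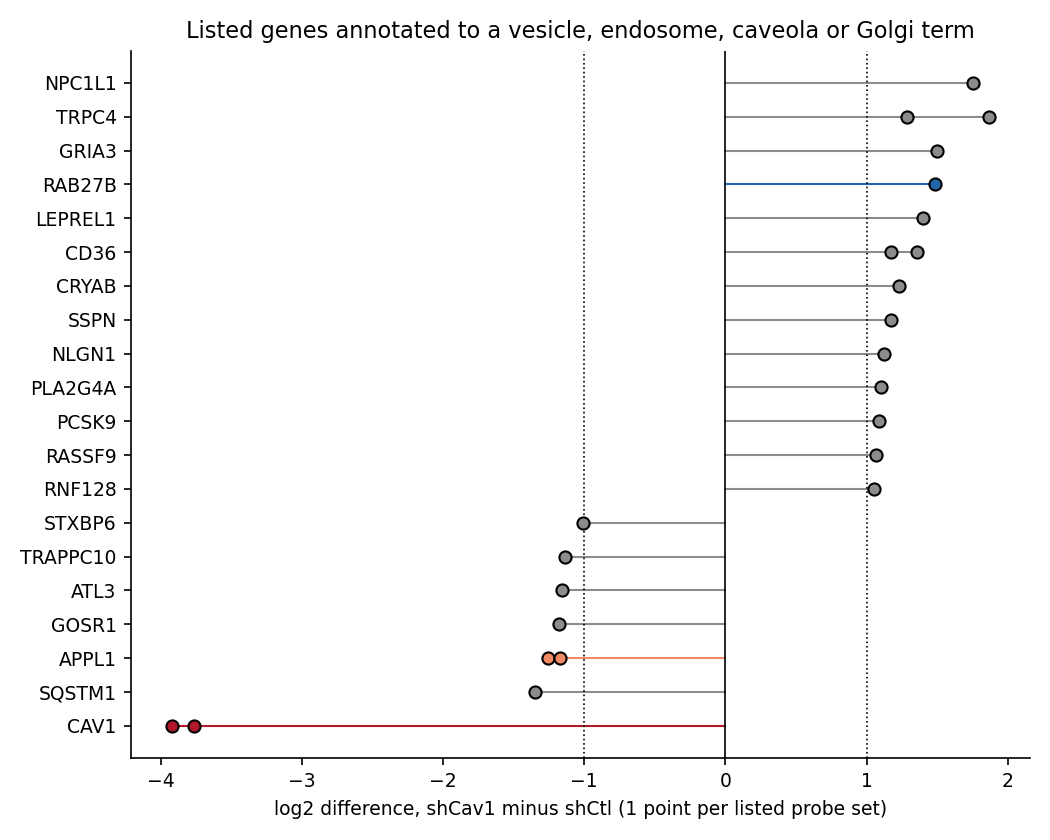
The 20 listed genes with a vesicle, endosome, caveola or Golgi term in the deposited annotation, each point 1 listed probe set and its log2 difference (shCav1 minus shCtl), with dotted lines at 2-fold and the 3 members among them in colour. CAV1 stands apart at the lower end, 7 genes are lower and 13 are higher, and apart from CAV1 all lie within 3.64-fold.

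Among themselves the 4 genes share few and broad annotation terms. The term membrane was common to all 4, and was held by 50 higher and 22 lower listed genes. The term protein binding was common to CAV1, APPL1 and SYTL5, and was held by 48 higher and 34 lower listed genes. CAV1 and RAB27B shared the term Golgi apparatus, and CAV1 and APPL1 shared cytoplasm and cytosol. The process terms of CAV1 were not used here, which limits the terms it could share. Listed genes with a similar log2 difference, by nearness, were LDLRAD3 (-1.25) and TXLNA (-1.27) for APPL1, SERPING1 (1.49) for RAB27B, and NLGN1 (1.12) and FZD2 (1.11) for SYTL5. For CAV1 the nearest were FRMD5 (-2.97) and XK (-2.08), 0.95 and 1.84 away, so no listed gene came close to it. Likeness was measured on 1 difference between 2 samples.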

How the data were processed

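Total RNA of 1 shCav1 and 1 shCtl sample, grouped by title, was hybridized to 1 array each. The processing tool was RMA, per the submitters' processing notes; for its version, and for the annotation release and build, the sources used here give nothing. The deposited series values are log2 values centred by the authors on the mean of both samples, so they hold a difference and no level. Their shCav1 minus shCtl difference equals the log2 value in the authors' deposited tables within 1e-05, and those tables also hold a linear fold ratio. Levels in shCtl are the deposited linear signal intensity of its column, matched by name. A further column (1 in number) was left out because no label matches its name. For shCav1 the shCtl intensity was multiplied by the fold in the series values.

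The 62 control probe sets were left out. The brightness filter was the median of all values, the call limit was 2-fold and a gene's representative was its brightest listed probe set. The number of arrays limits the precision of every value. The alternatives were median centring, loess against the mean log2 value (statsmodels 0.14.6, span 0.3), centring on the spikes, a pseudocount of 16, no filter or a filter at the 75th percentile, and limits of 1.5-fold and 3-fold. The counting was tested on simulated data. Genes named in the text are the 4 members, the listed genes of the lists, the 2 nearest listed genes per member, and up to 4 genes per direction with a compartment term; an item given by this rule is not reported here. The members and lists were chosen with earlier results of these data known. Start windows came from the RefSeq table of GRCh38.p14, which matched all 4 genes. Process annotation was emptied for 16 listed probe sets and not analysed here for these.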

Additional observations from a re-analysis of the deposited data

How the results depend on the processing

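The 6 probe sets kept their direction under every setting run (26 values in all), and 24 of the 26 were past 2-fold. Most of these settings could not have reversed a direction, so nothing is read from that count. Median centring changed nothing, as the median difference was 0, and adding 16 to both signals cannot change a sign. The 2 values that were not past 2-fold are given in the report. For 23 of the 26 the shift was under 1 robust SD at that brightness. The rest came from the pseudocount of 16, which shrinks dim differences by construction and gave log2 differences of -3.61 and -3.30 for CAV1 and 1.12 for RAB27B. Of the 4 genes 1, CAV1, passed a limit of 3-fold, which left 0 higher and 1 lower gene from the trafficking lists and 2 higher and 1 lower among the annotated genes. Centring on the spikes left 1 higher trafficking gene, 8 higher annotated genes and 142 lower probe sets. The background counts of 141 higher and 84 lower became 79 and 43 with a filter at the 75th percentile, 552 and 578 at 1.5-fold, 42 and 16 at 3-fold, and 91 and 49 with the pseudocount. No filter, median centring and loess kept them within 1.5 times. No paired analysis was possible because there was 1 array of each kind. Low signal limits values such as RAB27B in shCtl, 29.7, below the array median. The settings for annotated genes were chosen after seeing the data.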

Other observations

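The following 4 annotation words (autophagy, exocytosis, SNARE and membrane raft) were chosen after the values were seen, and the counts carry no test. Process terms were emptied for 16 listed probe sets and 35 had no terms, so the counts cover the remaining annotation only. Of the 180 annotated listed genes, 114 were higher and 66 lower, and no share over all genes can be given. Autophagy terms were held by 2 listed genes, both lower in shCav1. ATG5, which takes part in lengthening the autophagosome membrane, was at 38.1% of its shCtl signal, from 91.7 to 34.9, a log2 difference of -1.39. SQSTM1, the cargo receptor described above, had a log2 difference of -1.35. With 16 added to every signal both were still past 2-fold, at -1.08 and -1.22, and centred on the spikes they came to -1.53 and -1.49. Each rests on 1 listed probe set.

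Exocytosis terms were held by 4 listed genes, 3 higher and 1 lower. Of the higher genes, RAB27B and SYTL5 are members chosen by their difference, so their direction adds nothing to this count. The other higher gene was SCIN, which encodes the actin-severing protein scinderin, with a signal of 13.0 in shCtl and 35.3 in shCav1. That shCtl signal is far below the array median, and with 16 added to every signal the SCIN log2 difference was 0.82, under 2-fold. TXLNA, a syntaxin-binding protein, was the lower one, from 150.5 to 62.3, or 41.4% of its shCtl signal.

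Terms naming a SNARE or a syntaxin were held by 2 listed genes, CAV1 and GOSR1, both lower. CAV1 was the hairpin's target and chosen by its difference, so its direction adds nothing to this count. GOSR1 rests on 1 listed probe set. Membrane raft terms were held by 3 listed genes, with CAV1 lower and TRPC4 and CD36 higher. CD36, a fatty acid and lipoprotein receptor, had log2 differences of 1.36 and 1.17 at its listed probe sets, with signals of 32.4 and 22.8 in shCtl and 83.2 and 51.5 in shCav1. With 16 added to every signal these were 1.03 and 0.80.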
